A study of Mus musculus with 12 samples.

Results

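The lymphatic endothelial genes described here are 8 of the 14851 genes in the deposited tables, chosen by symbol as Prox1, Nr2f2, Sox18, Lyve1, Pdpn, Flt4, Vegfc and Vegfd. They were followed in 562 cells, a spontaneously immortalized mouse line from vascular tumors in which Tsc1 had been deleted by an inducible Cre active in endothelial cells. The labels give the strain as C57BL/6, the tissue as lymphatic endothelial cells and the genotype of the controls as wildtype, although control and KO cells alike descend from the Tsc1-deficient line. RNA-sequencing libraries were made from 3 samples each of control cells, carrying a guide RNA against EGFP, and of cells with a KO of Fip200, Atg5 or Atg7, made with lentiviral CRISPR-Cas9 and puromycin selection. All were grown in endothelial medium without further treatment. Fip200 (symbol Rb1cc1) acts in the kinase complex that starts autophagy, and Atg5 and Atg7 act in the lipidation of LC3, so the design asks what loss of autophagy at either step does to these tumor cells. The study made Fip200 KO cells with a pair of guides and describes a pair of Fip200 KO clones, and the labels do not say which guide or clone a library came from.

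Lymphatic endothelial cells arise from venous endothelium. Nr2f2 (COUP-TFII) and Sox18 act upstream of Prox1, the transcription factor that sets and keeps lymphatic identity. Flt4 encodes VEGFR3, the receptor that carries the growth and migration signal, and Vegfc and Vegfd encode its ligands. Lyve1 is a hyaluronan receptor and Pdpn (podoplanin) a membrane mucin, both used to stain lymphatic vessels, although Lyve1 is also found on some macrophages and Pdpn on many fibroblasts.

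All 8 genes are given with their identifiers and spans on GRCm38. Prox1 (19130) lies at chr1:190118035-190170714 on the minus strand, Nr2f2 (11819) at chr7:70351944-70366735 on the minus strand and Sox18 (20672) at chr2:181669836-181671640 on the minus strand. Flt4 (14257) lies at chr11:49609263-49652739 on the plus strand, Lyve1 (114332) at chr7:110850607-110863239 on the minus strand and Pdpn (14726) at chr4:143267431-143299564 on the minus strand. The ligand genes Vegfc (22341) at chr8:54077606-54187096 and Vegfd (14205) at chrX:164373378-164402650 are both on the plus strand.

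The promoters of Vegfc and Vegfd are shown because these ligand genes had the largest fitted differences from control among the 8 genes and varied together across libraries. Each window is the 250 bases before the start that RefSeq gives on GRCm38.p6, which can differ from the start of the span above, and it lies at chr8:54077282-54077531 (plus) for Vegfc and at chrX:164373272-164373521 (plus) for Vegfd. Capitals mark the matches to 6 short motifs searched on both strands, which were the GC box (GGGCGG), the TATA box (TATAAA), the CCAAT box, and the short core motifs of AP-1 (TGANTCA), of SOX factors (AACAAT) and of ETS factors (CCGGAA).
Vegfc promoter: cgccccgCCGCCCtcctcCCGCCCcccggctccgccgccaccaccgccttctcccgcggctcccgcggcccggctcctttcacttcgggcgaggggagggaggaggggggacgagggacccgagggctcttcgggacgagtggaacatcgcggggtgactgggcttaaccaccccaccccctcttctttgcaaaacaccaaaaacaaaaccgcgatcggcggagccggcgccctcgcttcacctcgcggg
Vegfd promoter: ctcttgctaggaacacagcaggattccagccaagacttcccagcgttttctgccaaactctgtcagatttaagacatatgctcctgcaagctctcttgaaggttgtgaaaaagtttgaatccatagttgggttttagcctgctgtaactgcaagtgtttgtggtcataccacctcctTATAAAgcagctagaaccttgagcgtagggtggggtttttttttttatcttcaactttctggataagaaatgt
The Vegfc window held 2 GC boxes, read here on the opposite strand as CCGCCC and beginning 243 and 232 bases before the start, and the Vegfd window held 1 TATA box beginning 73 bases before it. The Vegfd span given above begins at chrX:164373378, inside this window and before the TATA match. For Vegfc the bases just after the RefSeq start were not found in a GENCODE transcript of the gene. A GC box was present in 32.7% and a TATA box in 12.4% of 32851 mouse promoter windows of this length. The CCAAT, AP-1, SOX and ETS letters, present in 33.8%, 6.75%, 9.42% and 12% of windows, were in neither. The windows also differed in composition, with 30 CpG and 71.6% G and C bases for Vegfc against 2 CpG and 42.4% for Vegfd. RefSeq windows were matched for 6 of the 8 genes, all but Lyve1 and Sox18.

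Between 17266926 and 23629730 reads were counted per library. The unit throughout is RPKM, the reads of a gene scaled to its length in kilobases and to all reads of the library, which allows levels of different genes to be set side by side. The study describes its replicates in general as biological and the KO samples as independent, and neither it nor the labels name the cultures behind these libraries. The p-values measure only the spread between these samples, of which a technical share cannot be told apart. The targeted genes were read first as a check of the labels. Rb1cc1 was at 6.43, 8.27 and 7.73 RPKM in control and at 5.18, 6.84 and 2.06 in Fip200 KO libraries, which overlapped, and Atg5 was at 14.2, 11.1 and 10.6 RPKM in control and at 8.53, 15.5 and 12.6 in Atg5 KO libraries, which also overlapped. Atg7 was at 18.4, 25.0 and 19.8 RPKM in control and at 5.40, 2.64 and 8.34 in Atg7 KO libraries, with every KO library below control. It was also below every control library in all Atg5 KO libraries (9.99, 11.9 and 9.94 RPKM) and in Fip200 KO replicates 2 and 3 (12.4 and 8.23), so a low Atg7 level did not mark the Atg7 KO libraries alone. A Cas9 cut in a gene need not lower its transcript, so the overlap for Rb1cc1 and Atg5 does not test these labels. No targeted gene separated its KO from all other libraries.

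Control replicates 2 and 3 stood apart from the other 10 libraries in a pair of fibroblast genes that were chosen after their values were seen. Dcn, a proteoglycan of connective tissue, was at 56.9 and 15.2 RPKM there and at most at 0.989 elsewhere, and Pdgfra, a fibroblast receptor, was at 9.02 and 2.26 RPKM there and at most at 0.320 elsewhere. The summed level of the 9 listed mesenchymal genes was 3.97, 214 and 43.9 RPKM in control replicates 1, 2 and 3, and ranged over 3.43 to 37.8 with Fip200 KO, 7.69 to 37.3 with Atg5 KO and 2.60 to 16.4 with Atg7 KO, and Col1a1, Rgs5 and Cspg4 were under 0.5 RPKM in every library. Pdgfrb, a receptor of mural cells, was also highest there, at 4.19 and 0.261 RPKM against at most 0.194 elsewhere. The remaining genes did not separate these libraries in the same way. Col3a1 was at 143 and 23.1 RPKM in control replicates 2 and 3, and at 34.3 and 31.3 in Fip200 KO replicate 2 and Atg5 KO replicate 3. Acta2 was at 0.444 and 2.91 RPKM in those control libraries and at up to 15.2 in KO libraries, and Col1a2 was higher in every KO than in every control library. The summed level of 13 pan-endothelial genes was 3070, 1247 and 2081 RPKM in control and between 2318 and 3376 in the KO libraries. Both of these control libraries carry the same name prefix in the labels, which the first control library does not. The comparisons of the KO groups with control were also made with control replicate 1 as the only control, an alternative chosen after seeing the data, in which the single control is assumed to vary like the KO libraries. In that fit Vegfd did not pass the filter on low values in any of the 3 comparisons, Prox1 not with KO of Fip200 or Atg7, and Vegfc not with KO of Fip200, so these have no such value.

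The labelled tissue was set against its defining markers. Lyve1, Pdpn and Flt4 were abundant, above 96.0%, 97.0% and 90.3% of the listed genes by mean control level, whereas Prox1 was above 23.4% of them. Of 6 listed genes of leukocytes and macrophages, which can also carry Lyve1, Ptprc, Csf1r, Adgre1, Mrc1 and Cd163 were under 0.5 RPKM in all 12 libraries. The exception was Cd68, a lysosomal protein, at 91.7, 49.8 and 34.4 RPKM in control and at 6.95 to 263 in the KO libraries. Cd68 fell in Atg5 KO (−2.26, adjusted p = 0.00640, limma) and Atg7 KO cells (−1.70, adjusted p = 0.0798, limma), and its highest value, 263 RPKM, was in Fip200 KO replicate 1. The 10 other surface and matrix genes of the lymphatic lists in the tables spanned a wide range of mean control levels, from 568 RPKM for Cd9 and 64.0 for Pgf down to 0.0223 for Madcam1 and 0.0165 for Stab2, which were under 0.5 in every library.

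In control cells the mean level was 144 ± 80.9 RPKM for Pdpn, 113 ± 60.7 for Lyve1, 58.7 ± 50.5 for Sox18, 52.6 ± 18.2 for Flt4, 42.8 ± 6.86 for Nr2f2, 6.97 ± 4.56 for Vegfc, 4.70 ± 4.91 for Vegfd and 0.767 ± 0.599 for Prox1 (SD, n = 3). Control libraries of neighbours in this order overlapped for 6 of the 7 neighbouring pairs. The exception was the step from Nr2f2 to Vegfc, where every control library was higher for Nr2f2, so the transcription factors Nr2f2 and Sox18 and the surface genes formed an upper set and the ligands and Prox1 a lower one.

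The spread between libraries of 1 group was wide for most of these genes. The pooled SD within groups, on the scale of log2(RPKM + 0.5), was 1.29 for Prox1, 1.27 for Sox18, 1.25 for Vegfc, 1.07 for Vegfd and 1.02 for Pdpn, against a median of 0.32 over 12233 genes. These 5 genes were more variable than 96.6% or more of the genes. Lyve1 had an SD of 0.64, Nr2f2 0.42 and Flt4 0.38, above 88.2%, 69.4% and 62.8% of the genes.

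**Figure D1:**
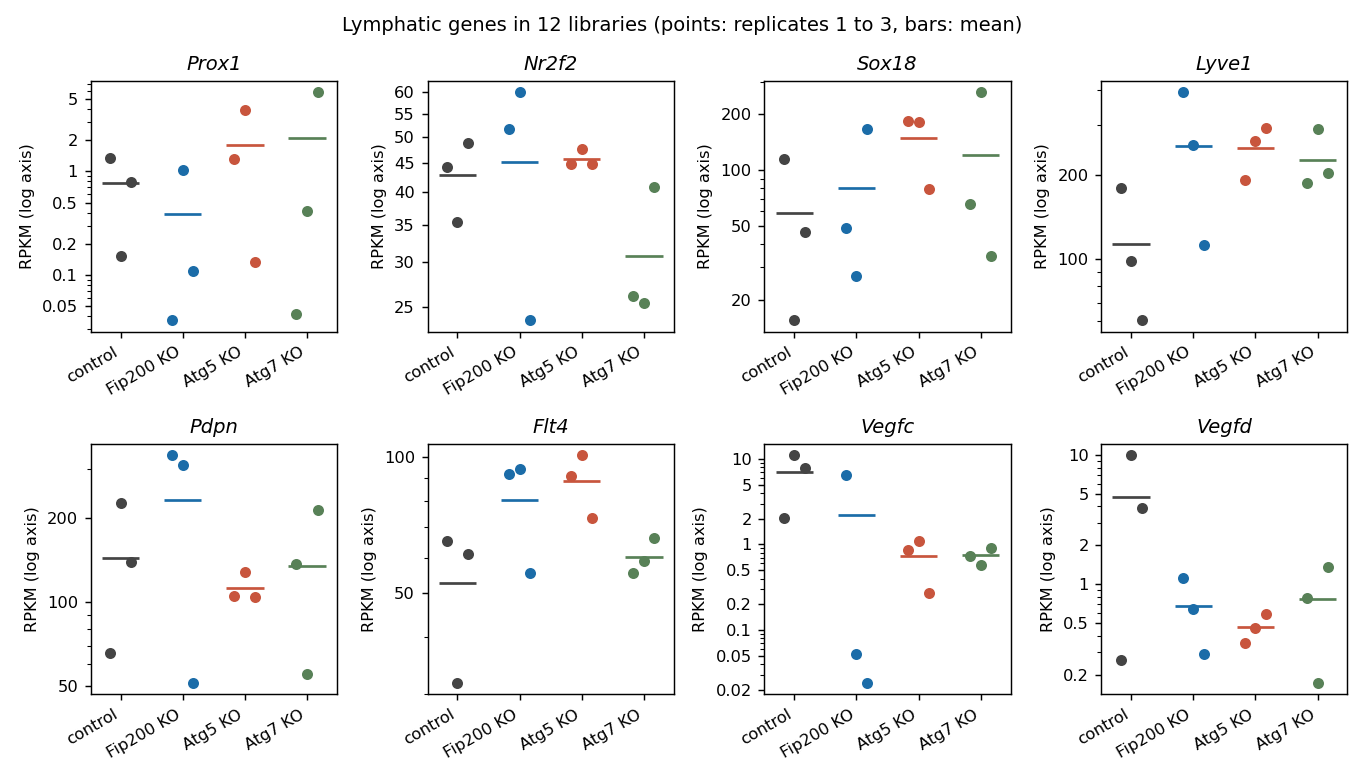
RPKM (log axis, a separate range for each gene) of the 8 lymphatic genes by group, where points are replicates 1 to 3 from left to right and bars are means. All Atg5 KO and Atg7 KO points lie above all control points for Lyve1 and below them for Vegfc, while the Prox1 points of each group are spread over a factor of 8.81 or more.

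KO and control libraries, 6 per comparison, were set against each other with limma on log2(RPKM + 0.5), a scale that understates the change of low genes. The fit took every gene that reached 0.5 RPKM in 3 or more of the 6 libraries. To be called, a gene needed a Benjamini-Hochberg adjusted p no higher than 0.1 over all tested genes and a fold change of 2 or more, that is 1 on the log2 scale, in either direction. The same 3 control libraries stand in all 3 comparisons, so like results in them are not independent. All 8 genes passed the filter in each comparison. In Atg5 KO cells 1 gene was called lower (Vegfc) and 1 higher (Lyve1), where 6.94% and 4.31% of 11833 genes went the same ways (11.2% in either direction). In Atg7 KO cells Vegfc was again called lower and Lyve1 higher, where the shares of 11784 genes were 6.81% and 3.29% (10.1% in all). In Fip200 KO cells 0 of the 8 genes were called by limma, where 1.64% of 11803 genes were called lower and 0.347% higher (1.98% together). That share rests on single libraries. The 234 genes behind it became 0 without control replicate 2 or without control replicate 3, 89 without control replicate 1, 143 and 41 without Fip200 KO replicates 1 and 2, and 598 without Fip200 KO replicate 3, while all 12 libraries in 1 fit gave 608. In the fit of the 6 Fip200 KO and control libraries 0 of the 8 had an unadjusted p under 0.05, and limma-voom on recovered reads also called 0. The median log2 fold change of the 8 genes was 0.22 with Fip200 KO, 0.34 with Atg5 KO and 0.07 with Atg7 KO, against 0.02, 0.06 and −0.01 over all tested genes. In bulk RNA, fewer cells that express a gene and less of its RNA per cell cannot be told apart, here or in any result that follows.

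**Figure D2:**
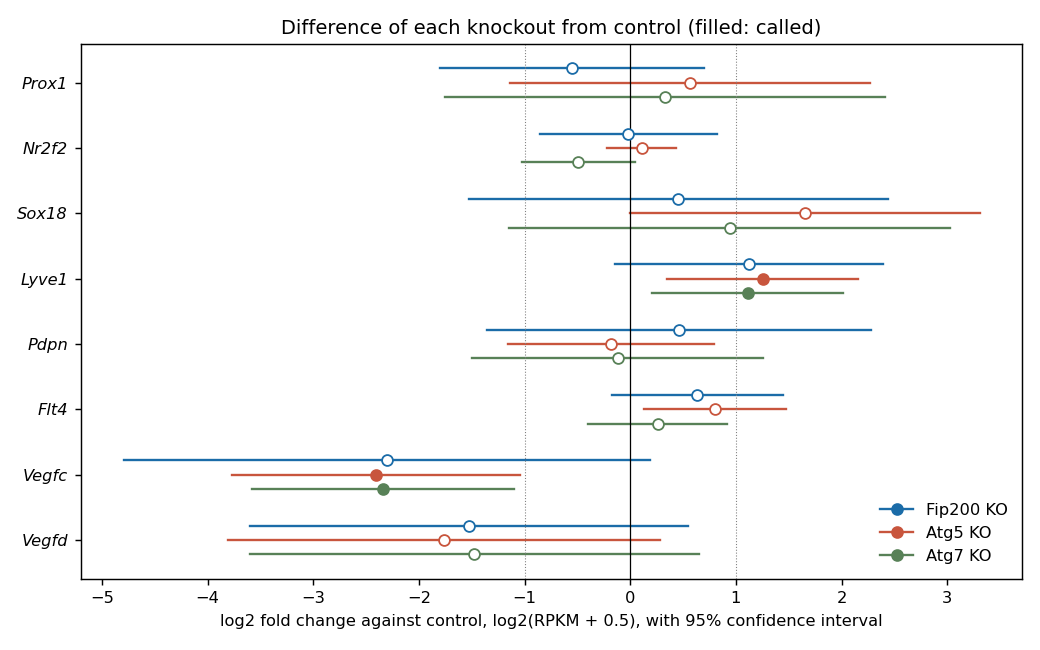
Log2 fold change of each KO against control on the log2(RPKM + 0.5) scale for the 8 lymphatic genes, with the 95% confidence interval of the limma fit as a line, filled points for called genes and dotted lines at −1 and 1. The 4 filled points are Lyve1 and Vegfc with KO of Atg5 or Atg7, while the Fip200 KO points of these genes lie at like values with wider intervals.

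Nr2f2, the venous and lymphatic nuclear receptor, was at 44.2, 35.3 and 48.8 RPKM in control replicates 1, 2 and 3, at 51.6, 60.0 and 23.7 in Fip200 KO, at 44.8, 47.7 and 44.9 in Atg5 KO and at 26.1, 25.4 and 40.9 in Atg7 KO libraries. The Atg5 KO libraries lay within the control range, and each of the other KO groups overlapped with control. Its log2 fold change was −0.02 (SE 0.36) for Fip200 KO, 0.11 (SE 0.14) for Atg5 KO and −0.49 (SE 0.23) for Atg7 KO, with limma adjusted p-values of 0.986, 0.572 and 0.178.

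Sox18, an endothelial SOX factor that acts upstream of Prox1, was at 114, 15.6 and 46.3 RPKM in control, at 48.7, 26.9 and 166 in Fip200 KO, at 184, 181 and 79.7 in Atg5 KO and at 65.8, 262 and 34.7 in Atg7 KO libraries. Libraries of 1 group differed by a factor of 2.32 to 7.56, and each KO group overlapped with control. The log2 fold change was 0.46 (SE 0.85), 1.65 (SE 0.70) and 0.94 (SE 0.89), with limma adjusted p-values of 0.811, 0.114 and 0.491. In Atg5 KO cells the value rested on which controls were used. It was 2.34 without control replicate 1, where Sox18 was called (adjusted p = 0.0285, limma), and 0.28 with control replicate 1 as the only control.

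Prox1 was at 1.35, 0.153 and 0.795 RPKM in control, at 0.0366, 1.02 and 0.110 in Fip200 KO, at 1.33, 3.90 and 0.134 in Atg5 KO and at 0.0420, 0.411 and 5.79 in Atg7 KO libraries. These values rest on 3 to 489 reads, and the highest library held 158 times the lowest. With KO of Atg5 and with KO of Atg7 1 library exceeded every control library by more than 2-fold while another was below all of them. The log2 fold change was −0.55 (SE 0.53) for Fip200 KO, 0.57 (SE 0.72) for Atg5 KO and 0.33 (SE 0.89) for Atg7 KO, with limma adjusted p-values of 0.628, 0.570 and 0.818, and the 95% intervals reached from −1.80 to 0.70, from −1.13 to 2.27 and from −1.75 to 2.41. A difference of either direction of more than 2-fold in Atg5 KO or Atg7 KO cells thus lay within the interval.

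Lyve1 was at 179, 98.9 and 60.6 RPKM in control replicates 1, 2 and 3, at 393, 255 and 112 with Fip200 KO, at 191, 264 and 293 with Atg5 KO and at 186, 290 and 203 with Atg7 KO. All 6 Atg5 KO and Atg7 KO libraries were above all control libraries, the lowest of them by little, and only Fip200 KO replicate 3 of the 9 KO libraries fell within the control range. No overlap with every KO library above control was seen for 28.4% of tested genes with Atg5 KO and 19.2% with Atg7 KO, and no overlap in either direction for 50.4% and 39.6%. Lyve1 rose in Atg5 KO cells by a log2 fold change of 1.25 (SE 0.38, adjusted p = 0.0480, limma) and in Atg7 KO cells by 1.11 (SE 0.39, adjusted p = 0.0947, limma), with mean levels of 249 ± 52.6 and 226 ± 55.7 against 113 ± 60.7 RPKM (SD, n = 3). In Fip200 KO cells the log2 fold change was 1.12, nearly the same size, with a wider error (SE 0.54, adjusted p = 0.352, limma). The call was close to the threshold. With a term for the prefix of the library names it was lost in Atg5 KO cells (1.53, adjusted p = 0.148, limma). It was also lost in Atg5 KO cells without any 1 of control replicates 2 and 3 and Atg5 KO replicates 2 and 3, where the log2 fold change was 0.88 to 1.23 and the adjusted p 0.103 to 0.121, and in Atg7 KO cells without any 1 library except control replicate 1. The Atg7 KO call was also lost without the filter on low values, with limma-voom, with the replicate number as a block, with all 12 libraries in 1 fit and with a term for the prefix of the library names, at adjusted p-values of 0.102 to 0.696 (limma), while its log2 fold change in these fits was 1.11 to 1.13. Against control replicate 1 alone the log2 fold change was 0.45 in Atg5 KO, 0.31 in Atg7 KO and 0.32 in Fip200 KO cells, and none was called. Over the 12 libraries Lyve1 had r = −0.59 with the summed mesenchymal genes, and its highest library, Fip200 KO replicate 1, was also the highest for Cd68. Their part in the Lyve1 values was not tested.

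Pdpn was at 65.6, 227 and 139 RPKM in control, at 336, 311 and 51.5 in Fip200 KO, at 105, 129 and 105 in Atg5 KO and at 137, 55.3 and 213 in Atg7 KO libraries. The Fip200 KO libraries held both the highest and the lowest value of the 12, and the Atg5 and Atg7 KO groups overlapped with control. Its log2 fold change was 0.46 (SE 0.78), −0.18 (SE 0.41) and −0.12 (SE 0.59), with limma adjusted p-values of 0.793, 0.754 and 0.906. The sign of these values changed with the library left out. Without control replicate 2, for example, the value in Atg5 KO cells was 0.23.

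Flt4, the receptor of both ligands, was at 65.2, 31.7 and 61.0 RPKM in control, at 91.8, 94.2 and 55.4 in Fip200 KO, at 90.9, 101 and 73.2 in Atg5 KO and at 55.4, 59.1 and 66.4 in Atg7 KO libraries. All Atg5 KO libraries were above control, as for 28.4% of tested genes, and the other KO groups overlapped with it. The log2 fold change in Atg5 KO cells was 0.80 (SE 0.28, adjusted p = 0.0734, limma), which passed the limit on p but not the limit on size. In Fip200 KO and Atg7 KO cells it was 0.64 (SE 0.34) and 0.26 (SE 0.28), with limma adjusted p-values of 0.404 and 0.545.

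Vegfc was at 2.05, 11.0 and 7.83 RPKM in control replicates 1, 2 and 3, at 6.52, 0.0528 and 0.0242 in Fip200 KO, at 0.854, 1.08 and 0.271 in Atg5 KO and at 0.739, 0.583 and 0.912 in Atg7 KO libraries. In reads this was 73, 491 and 291 for control, 243, 2 and 1 for Fip200 KO, 31, 42 and 11 for Atg5 KO and 24, 20 and 35 for Atg7 KO libraries. All 6 Atg5 KO and Atg7 KO libraries were below all control libraries, while Fip200 KO replicate 1 lay within the control range and the other Fip200 KO libraries held almost no reads. No overlap with every KO library below control was seen for 22% of tested genes with Atg5 KO and 20.4% with Atg7 KO. Vegfc fell by 2.40 on the log2 scale in Atg5 KO cells (SE 0.57, adjusted p = 0.0238, limma) and by 2.34 in Atg7 KO cells (SE 0.53, adjusted p = 0.0324, limma), with mean RPKM 9.47 and 9.37 times lower than in control. In Fip200 KO cells the log2 fold change was −2.30 with an SE of 1.06 (adjusted p = 0.341, limma).

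The Vegfc call in Atg5 KO cells held without any 1 library, at −3.05 to −1.96. In Atg7 KO cells it was lost without control replicate 3 (−2.13, adjusted p = 0.125, limma) and without Atg7 KO replicate 1 (−2.34, adjusted p = 0.101, limma). Against control replicate 1 alone the log2 fold change was −1.11 in Atg5 KO (adjusted p = 0.198, limma) and −1.04 in Atg7 KO cells (adjusted p = 0.368, limma), and neither was called. When the prefix of the library names was added as a term the log2 fold change was −2.74 for Atg5 KO and −2.06 for Atg7 KO, with an adjusted p of 0.180 and 0.720 (limma). With all 12 libraries in 1 fit the Atg7 KO value stayed at −2.34 and its call was lost (adjusted p = 0.103, limma). Vegfc was highest in control replicates 2 and 3, the libraries with the most Dcn and Pdgfra, and the part of those markers in the result was not tested. Genes of chromosome 8 as a whole, 491 with at least 2 RPKM in every library, had median log2 fold changes of −0.34, −0.34 and −0.36 for the KO of Fip200, of Atg5 and of Atg7, against 0.04, 0.09 and 0.04 over 8574 such genes.

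Vegfd was at 0.262, 9.98 and 3.86 RPKM in control, at 1.12, 0.651 and 0.288 in Fip200 KO, at 0.351, 0.460 and 0.585 in Atg5 KO and at 0.785, 0.173 and 1.37 in Atg7 KO libraries. Control replicates 2 and 3 were above all 9 KO libraries and control replicate 1 was below 8 of them, so every KO group overlapped with control. The log2 fold change was −1.52 (SE 0.88) for Fip200 KO, −1.77 (SE 0.86) for Atg5 KO and −1.48 (SE 0.90) for Atg7 KO, with limma adjusted p-values of 0.430, 0.160 and 0.290. The study, which tested with edgeR, lists Vegfd as lower in each KO at the same limits on adjusted p and size. Without control replicate 1 Vegfd was called lower in Atg5 KO (−2.82, adjusted p = 0.00812, limma) and Atg7 KO cells (−2.53, adjusted p = 0.0465, limma), and a term for the name prefix also gave a call in Atg5 KO cells (−2.90, adjusted p = 0.0365, limma). By Pearson's r Vegfd was the gene of the 8 whose level varied most closely with the summed mesenchymal genes over the 12 libraries (r = 0.75). It was followed by Sox18 in the opposite direction (r = −0.70), and then by Lyve1 (−0.59) and Flt4 (−0.53), whereas Vegfc had r = 0.22. By Spearman's rho Sox18 came first, at −0.66 against 0.61 for Vegfd. The part of the mesenchymal genes in the Vegfd values was not tested. On the X chromosome, where Vegfd lies, 234 genes had medians of −0.33, −0.37 and −0.26 in the same comparisons. Xist, which silences an X chromosome, was at 12.7, 0.538 and 0.0178 RPKM in control, at 0.0468 in Atg7 KO replicate 2 and at 36.2 to 65.4 in the other 8 KO libraries, and its part in the Vegfd values was not tested.

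The labels give each library a name prefix, FY, JG or Yang, whose meaning they do not state. Control replicate 1 and all Fip200 KO libraries share FY, control replicates 2 and 3 and Atg5 KO replicates 1 and 2 share JG, and the Atg7 KO libraries share Yang with Atg5 KO replicate 3. Within JG, 2 libraries against 2, the difference of Atg5 KO from control on the log2 scale was −2.74 for Vegfc, −2.90 for Vegfd, 1.53 for Lyve1, 1.12 for Flt4, 2.74 for Sox18, 1.62 for Prox1, −0.61 for Pdpn and 0.15 for Nr2f2. The JG groups overlapped for Nr2f2 alone, where 73.8% of 11833 genes did not overlap (33.5% lower and 40.3% higher in Atg5 KO), so that count is near the background. Within FY, 3 Fip200 KO libraries against 1 control library, the difference was −1.01 for Vegfc, 0.32 for Lyve1, 0.26 for Flt4, −1.22 for Prox1, 1.41 for Pdpn and −0.08 for Nr2f2. It was 0.58 for Vegfd and −0.92 for Sox18, both opposite in sign to the pooled value. Atg7 KO has no prefix in common with control, so prefix and KO could be separated there only through Atg5 KO replicate 3.

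The KO cells were next compared with each other in 1 fit of all 12 libraries. By limma 0 of the 8 genes, and 0 of 12233 genes in all (0%), were called between any pair of KO groups. An unadjusted p under 0.05 was reached by 0 of the 8 and by 927, 916 and 562 of all genes in Atg5 against Fip200 KO, Atg7 against Fip200 KO and Atg7 against Atg5 KO cells, and limma-voom also called 0. The count over all genes rested on Fip200 KO replicate 3, without which 300 genes were called in Atg5 against Fip200 KO and 402 in Atg7 against Fip200 KO cells, with 0 of the 8 among them. For Vegfc the differences were −0.10 (95% interval −2.02 to 1.82), −0.03 (−1.95 to 1.88) and 0.07 (−1.85 to 1.98). For Lyve1 they were 0.13 (−0.88 to 1.13), −0.01 (−1.02 to 0.99) and −0.14 (−1.15 to 0.86). The intervals for Vegfc leave room for differences of more than 2-fold either way. Both Flt4 and Nr2f2 were lower in every Atg7 KO than in every Atg5 KO library, as were 11.2% of 12233 genes (5.38% were higher in every one, 16.6% in all), with differences of −0.54 (SE 0.28) and −0.60 (SE 0.31) and an adjusted p of 1.00 each (limma).

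Across the 12 libraries the 8 genes did not vary as 1 set. Pdpn and Sox18 varied inversely (Pearson's r = −0.80 on the log2 scale, n = 12), and within groups, after the group means were taken out, r was −0.88. Vegfd and Sox18 also varied inversely (r = −0.79, and −0.80 within groups), and Vegfc and Vegfd varied together (r = 0.77, and 0.60 within groups). Pdpn was highest in Fip200 KO replicates 1 and 2, where Sox18 was at 48.7 and 26.9 RPKM, and lowest in Fip200 KO replicate 3 and Atg7 KO replicate 2, where Sox18 reached its highest values apart from the Atg5 KO libraries. Lyve1 and Flt4 had r = 0.61, while Prox1 had r = 0.06 with Lyve1, 0.08 with Pdpn and 0.40 with Flt4. Of 28 pairs these are a description, since libraries of a group and of a name prefix share their source.

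**Figure D3:**
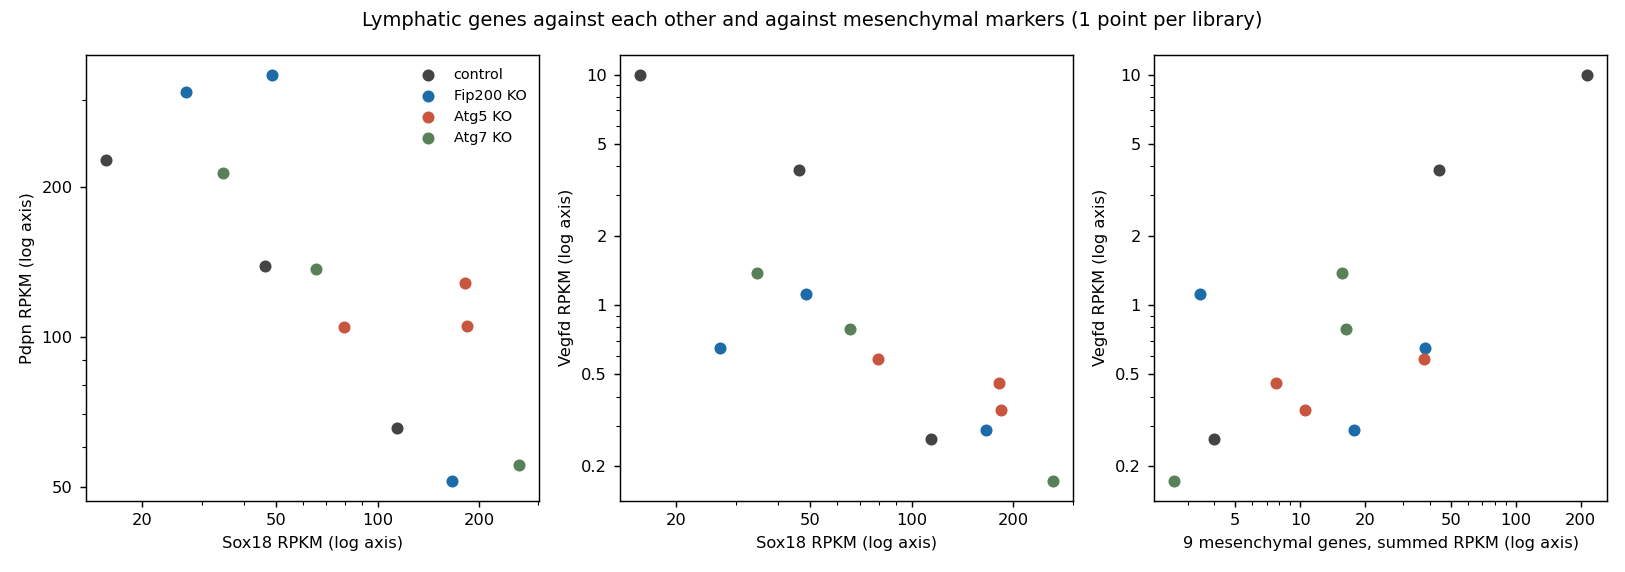
RPKM (log axes) of Pdpn against Sox18, of Vegfd against Sox18, and of Vegfd against the summed RPKM of 9 mesenchymal genes, with 1 point for each of the 12 libraries colored by group. Pdpn and Vegfd decline as Sox18 increases in all groups together (r = −0.80 and −0.79), and the control libraries with most mesenchymal RNA, at 214 and 43.9 RPKM, have the most Vegfd.

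The genes most like each of the 8 were sought among 11011 others with a mean of at least 1 RPKM, by Pearson's r over the 12 libraries. Sox18 was most like Exoc3l (r = 0.94) and Kdr (0.94), which encodes VEGFR2, and Pdpn was most like Foxc1 (0.95), a forkhead factor, and Gapdh (0.95), a glycolytic enzyme. Vegfd was most like Cxcl1 (0.95), a chemokine, and Prl2c2 (0.94), and Vegfc was most like Mrpl14 (0.95), a mitochondrial ribosomal protein, and Cystm1 (0.94). Flt4 was most like Cmtm3 (0.94) and Zfp947 (0.90), Nr2f2 like Cmas (0.94) and Stap2 (0.92), and Lyve1 like Uvssa (0.92) and Mms19 (0.91). Prox1 had the loosest best matches, Oaf (0.82) and Apold1 (0.81).

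Beyond the 8 genes, 52 genes of lymphatic development were followed in 4 lists, of which 50 were in the tables and 36 to 38 passed the filter. In Atg5 KO cells 7 were called lower and 5 higher of 38 tested, and in Atg7 KO cells 7 lower and 2 higher of 36 tested, against 11.2% and 10.1% of all tested genes in either direction. In Fip200 KO cells 0 of 36 were called by limma, against 1.98% of all genes, 12 had an unadjusted p under 0.05, as did 1904 of all 11803 genes, and limma-voom called 0. Fip200 KO replicate 3 weighed on that count, since 6 genes were called without it, as were 598 of 11659 genes in all. The median log2 fold change of the tested genes was 0.09, −0.0033 and −0.11 for the KO of Fip200, of Atg5 and of Atg7, against 0.02, 0.06 and −0.01 over all genes. Leaving out 1 library gave 7 to 12 calls in Atg5 KO and 4 to 9 in Atg7 KO cells, with the fewest without control replicate 3 and, in Atg7 KO cells, equally few without Atg7 KO replicate 1. A term for the prefix of the library names gave 2 calls with KO of Atg5 and 0 with KO of Atg7, and all 12 libraries in 1 fit gave 6 with each, so the genes said below to have risen or fallen did so in the comparisons of 6 libraries. With control replicate 1 as the only control 5 genes were called in Atg5 KO cells and 0 in the others, but calls over all genes also dropped to 736, and to 1 in Atg7 KO and 0 in Fip200 KO cells.

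Among 11 transcription factors, 3 fell and 1 rose of 10 tested in Atg5 KO cells, and 3 fell of 9 in Atg7 KO cells. Id2, an inhibitor of basic helix-loop-helix factors, was at 30.5, 30.2 and 31.2 RPKM in control, at 2.14, 0.547 and 11.5 in Fip200 KO, at 7.04, 3.32 and 7.67 in Atg5 KO and at 6.10, 4.87 and 6.01 in Atg7 KO libraries. All 9 KO libraries were below the closely spaced controls. Taken 1 KO at a time, every KO library was below control for 12.4% of tested genes with Fip200, 22% with Atg5 and 20.4% with Atg7 KO. The share for all 9 together was not computed. Id2 fell by 2.33 (SE 0.28, adjusted p = 0.00478, limma) in Atg5 KO and by 2.34 (SE 0.15, adjusted p = 0.00226, limma) in Atg7 KO cells, while the value in Fip200 KO cells was −3.28 (SE 0.78, adjusted p = 0.124, limma). Foxc2, which is needed for lymphatic valves, was at 15.3, 15.0 and 15.9 RPKM in control and at 0.136 to 9.30 in the 9 KO libraries, and it fell in Atg5 KO (−2.37, adjusted p = 0.0799, limma) and Atg7 KO cells (−1.86, adjusted p = 0.00720, limma). Klf2, a factor induced by flow, fell in the same cells (−2.01 and −1.58, adjusted p = 0.0483 and 0.0389, limma). Nfatc1 was the factor that rose, from 3.39 to 4.05 RPKM in control to 7.40 to 10.6 in Atg5 KO libraries (1.11, SE 0.18, adjusted p = 0.00785, limma).

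Among 14 genes of the VEGF-C axis besides its members, 8 were tested, and 1 fell and 1 rose in Atg5 KO cells. So few calls are near the shares over all tested genes, 6.94% lower and 4.31% higher. Ccbe1, which is needed for the processing of VEGF-C, was at 1.73, 4.55 and 1.36 RPKM in control and at 0.433, 0.524 and 0.153 in Atg5 KO libraries, all lower (−1.69, SE 0.40, adjusted p = 0.0231, limma). Every Atg5 KO library was below control for 22% of tested genes. In Atg7 KO libraries it was at 1.98, 6.43 and 4.07 RPKM, which overlapped with control (0.64, adjusted p = 0.396, limma). Kdr rose in Atg5 KO cells by 1.35 (SE 0.51, adjusted p = 0.0878, limma), and its values in Fip200 KO and Atg7 KO cells were 0.23 and 0.65 (adjusted p = 0.855 and 0.454, limma). Adamts3, a protease of VEGF-C, was 1 of 4 listed genes under 0.5 RPKM in every library, with Pcsk5, Svep1 and Itga9.

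Among 15 other growth and patterning genes, 2 fell and 1 rose of 13 tested in Atg5 KO cells, and 3 fell and 1 rose of 12 in Atg7 KO cells. The shares over all tested genes were 6.94% lower and 4.31% higher with Atg5 KO, and 6.81% and 3.29% with Atg7 KO. The called genes were Vegfa and 3 genes of 1 signal, the peptide adrenomedullin (Adm) and its receptor made of Calcrl and Ramp2. Adm was at 71.2, 56.1 and 73.6 RPKM in control and at 118 to 334 in the 9 KO libraries, all above control, and it rose by 1.47 (SE 0.21, adjusted p = 0.00635, limma) in Atg5 KO and by 2.14 (SE 0.17, adjusted p = 0.00416, limma) in Atg7 KO cells. Ramp2 was at 201, 94.5 and 165 RPKM in control and at 31.2 to 86.9 in the KO libraries, all below control, and it fell by 1.38 and 1.33 in the same cells (adjusted p = 0.0346 and 0.0784, limma). With KO of Fip200, Atg5 and Atg7 in turn, every KO library was above control for 11.7%, 28.4% and 19.2% of tested genes. The shares below control were 12.4%, 22% and 20.4%. Calcrl fell by 1.25 in Atg7 KO cells (adjusted p = 0.0371, limma) and had a value of −0.55 in Atg5 KO cells (adjusted p = 0.140, limma). Ligand and receptor subunits of this signal thus moved in opposite directions in Atg7 KO cells. Vegfa fell by 1.26 in Atg5 KO and by 1.20 in Atg7 KO cells (adjusted p = 0.0169 and 0.0591, limma), so Vegfc and Vegfa were both lower there.

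Among 12 further lymphatic surface and matrix genes, of which 10 were in the tables and 7 tested, 1 fell and 2 rose in Atg5 KO cells, and 1 fell and 1 rose in Atg7 KO cells. The shares over all tested genes were 6.94% lower and 4.31% higher with Atg5 KO, and 6.81% and 3.29% with Atg7 KO, so counts of 1 are near them. Thy1, a glycoprotein of the cell surface, was at 17.7, 11.2 and 2.36 RPKM in control, at 288, 229 and 0.210 in Fip200 KO, at 118, 107 and 207 in Atg5 KO and at 346, 71.2 and 196 in Atg7 KO libraries. It was above control in 8 of the 9 KO libraries and lowest of all in Fip200 KO replicate 3. Thy1 rose by 4.02 (SE 0.66, adjusted p = 0.00854, limma) in Atg5 KO and by 4.32 (SE 0.79, adjusted p = 0.0207, limma) in Atg7 KO cells. The tetraspanin gene Cd9 fell by 1.01 and 1.10 there (adjusted p = 0.00797 and 0.0700, limma). Mmrn1, a matrix protein of lymphatic endothelium, rose in Atg5 KO cells by 2.18 (SE 0.69, adjusted p = 0.0543, limma) and was at 1.42, 1.26 and 27.2 RPKM in Atg7 KO libraries against 4.96, 0.743 and 8.15 in control.

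**Figure D4:**
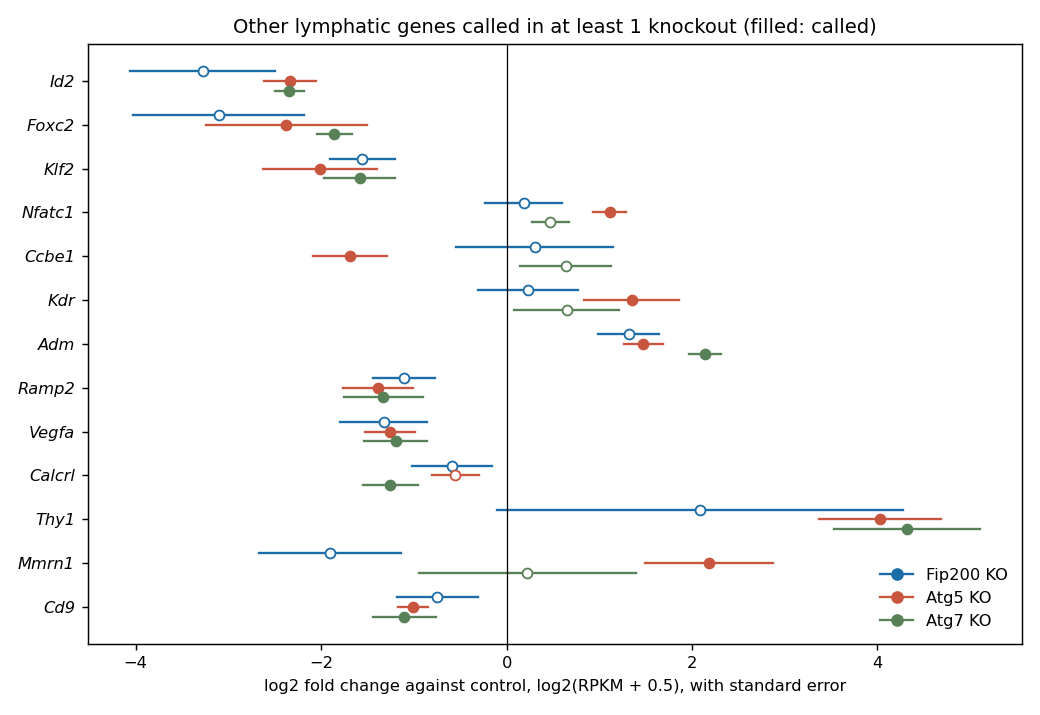
Log2 fold change of each KO against control on the log2(RPKM + 0.5) scale for 13 named lymphatic genes outside the 8, with the standard error of the limma fit as a line and filled points for called genes. Id2, Foxc2, Klf2, Ramp2, Vegfa, Calcrl and Cd9 lie to the left of 0 and Nfatc1, Kdr, Adm and Thy1 to the right in all 3 KO, while Ccbe1 and Mmrn1 lie on different sides in different KO.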

How the data were processed

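RNA from 12 samples of 562 cells was sequenced from directional libraries. Per the paper's methods the authors trimmed reads, aligned them with TopHat2, counted them on known transcripts and tested them with edgeR. The build and the versions are not given in the sources used here. The authors deposited 3 tables, 1 per KO against the same control, with RPKM per library and group means that are a signal on the scale of normalized reads. The columns of fold changes and p-values that the authors deposited were not used. Whole reads were recovered from the RPKM steps for 100% of values, within 0.01 reads plus a margin that grew with the read count. Genes with many reads were thus checked less strictly.

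Genes that reached 0.5 RPKM in 3 or more of the 6 libraries were tested with limma 3.58.1 in R 4.3.3 on log2(RPKM + 0.5), moderated along the trend of expression. The script was tested on simulated data. Replicates differed beyond sampling noise (chi-square per degree of freedom at least 8.66). The 8 genes, the lists and the tests were chosen with earlier results of these data known. Beyond the 8, each list's called genes were named, or the 4 of largest change where over 4 were called. A listed gene is not reported here and was left out of the lists' counts. The marker genes Dcn and Pdgfra were added after their values were seen. For each of the 8 the 2 most correlated genes were named. Spans came from GENCODE M21 and promoters from RefSeq (GRCm38). Alternatives covered pseudocounts, filter, scaling, replicate block, limma-voom, all 12 libraries, name prefix and left-out libraries.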

Additional observations from a re-analysis of the deposited data

Results flagged for a closer look

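Nr2f2 lay on different sides of the control mean in Atg5 KO and Atg7 KO cells. All 3 Atg5 KO libraries, at 44.8, 47.7 and 44.9 RPKM, were above the control mean of 42.8, and all 3 Atg7 KO libraries, at 26.1, 25.4 and 40.9 RPKM, were below it. The 2 effects were 0.5984 apart on the log2 scale. A direct test of Atg7 KO against Atg5 KO over all 12 libraries gave −0.60 (SE 0.31, unadjusted p = 0.0788, adjusted p = 1.00, limma), so the difference did not pass. Neither effect was called on its own, the Atg5 KO libraries lay within the control range, and the Atg5 KO effect of 0.11 turned to −0.022 without control replicate 2.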

How the results depend on the processing

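Of 345 log2 fold changes of the 8 genes against control under other settings, 294 kept their direction and side of the threshold, 24 lost the call, 4 gained it and 23 changed sign. Other pseudocounts and median-of-ratios scaling changed no count of calls among the 8 genes or the other lymphatic genes, while over all genes other pseudocounts gave 1062 to 1589 calls in Atg5 KO and 976 to 1385 in Atg7 KO. Among the 8 genes, both calls in Atg5 KO were lost with the name prefix as a term and 1 other, Vegfd, was gained, and the 2 in Atg7 KO became 1 without the filter, 1 with limma-voom, and 0 with the prefix or with all 12 libraries in 1 fit. With control replicate 1 as the only control both counts were 0, and the other lymphatic genes had 5 calls in Atg5 KO and 0 in Atg7 KO, while over all genes 1331 calls became 736 in Atg5 KO and 1191 became 1 in Atg7 KO. With the prefix these became 663 and 38. Leaving out 1 library gave 1 to 4 calls in Atg5 KO and 0 to 3 in Atg7 KO. Of the other lymphatic genes, the 0 calls in Fip200 KO became 2 with all 12 libraries in 1 fit (608 over all genes). They became 0 to 6 without 1 library (0 to 598 over all genes). The 12 in Atg5 KO became 6 with all 12 libraries and 2 with the prefix, and 7 to 12 without 1 library. The 9 in Atg7 KO became 0 with the prefix and 4 to 9 without 1 library. The cause was not tested.

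Same-numbered control and KO libraries deviated together with r of −0.22 to 0.08, so the replicate numbers were not taken as pairs. With the replicate number as a block the calls among the 8 genes stayed at 2 in Atg5 KO and 0 in Fip200 KO and became 1 in Atg7 KO, where Lyve1 had an adjusted p of 0.130 (limma), and the other lymphatic genes had 1, 13 and 7 calls with KO of Fip200, Atg5 and Atg7. The block left all counts of 0 between KO groups at 0. Not every library correlated best with its own number.

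Signs changed in Fip200 KO with the prefix as a term for Vegfd (0.58) and Sox18 (−0.92), and in Atg7 KO with limma-voom for Prox1 (−0.038). Against control replicate 1 alone they changed for Sox18 in Fip200 KO (−0.92) and Atg7 KO (−0.43), Prox1 in Atg5 KO (−0.11), Pdpn in Atg5 KO (0.77) and Atg7 KO (0.84) and Flt4 in Atg7 KO (−0.12). Without 1 library, ranges that crossed 0 were −0.018 to 1.34 (Pdpn), −0.27 to 0.39 (Nr2f2) and −0.27 to 1.14 (Sox18) in Fip200 KO, −0.11 to 1.29 (Prox1), −0.66 to 0.23 (Pdpn) and −0.022 to 0.21 (Nr2f2) in Atg5 KO, and −0.086 to 1.04 (Prox1), −0.60 to 0.42 (Pdpn) and −0.068 to 0.45 (Flt4) in Atg7 KO. Prox1 and Vegfd fell under the filter in some of these fits and then had no value. Vegfc in KO libraries other than Fip200 KO replicate 1 rests on at most 42 reads and Vegfd outside control replicates 2 and 3 on at most 62, which limits their precision. Intervals cover the spread between libraries.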

Other observations

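Other endothelial genes outside the lymphatic lists were also measured. Of 13 pan-endothelial genes, 12 were tested, and Cdh5, Cldn5, Egfl7, Esam and Robo4 were called higher in Atg5 KO cells, where 4.31% of all tested genes were. In Atg7 KO cells Robo4 was called higher and Flt1 lower, as were 3.29% and 6.81% of all tested genes. Flt1, a decoy receptor for VEGF-A, was at 23.3, 16.1 and 34.1 RPKM in control and at 0.145 to 15.9 RPKM in the 9 KO libraries, and it was the 1 gene of this list called in Fip200 KO cells, where it was lower (−3.66, adjusted p = 0.0995, limma). That call was at the limit and was lost without control replicate 2 or without control replicate 3, where 0 genes in all were called. Cdh5 (VE-cadherin) was at 310, 116 and 271 RPKM in control and at 571, 558 and 443 RPKM in Atg5 KO libraries. The lowest of these control values was in control replicate 2, which also held the lowest sum of the 13 genes, and the part of that library in these values was not tested.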
